A study of Arabidopsis thaliana with 357 samples.

Results

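The 47 genes described here are the nuclear Arabidopsis genes for the light-harvesting antennae (LHCA and LHCB), for subunits of photosystem I (PSA) and photosystem II (PSB), and for the small subunits of Rubisco (RBCS) with Rubisco activase (RCA). They were taken from the read count table by AGI code, without a threshold on any measured value, and are 47 of its 33600 genes. The set was chosen with earlier results of these data known. By role, 6 belong to the antenna of photosystem I, 14 to the antenna of photosystem II, 12 to photosystem I, 10 to photosystem II and 5 to Rubisco and its activase. The count table covers 17 genotypes of Arabidopsis leaves at 7 times, 0 h and then 1, 2, 3, 5, 9 or 18 h after infiltration with 1 μM flg22, a peptide of bacterial flagellin that the receptor kinase FLS2 perceives. Each of the 119 groups of genotype and time had 3 replicates, which gives 357 stranded mRNA Tag-Seq libraries, in which reads come from the 3′ part of transcripts. A replicate was leaf RNA pooled over 4 experiments, with 3 leaves of 1 plant in each, at leaf stages 7 to 9 of plants aged 31 to 32 days.

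All genotypes are in the Col-0 background, and 16 of them combine mutant alleles of 4 signalling genes in every way. These are dde2-2 in DDE2, which is needed to make jasmonate (JA), ein2-1 in EIN2, which is needed to signal ethylene (ET), pad4-1 in PAD4, a regulator of immune signalling, and sid2-2 in SID2, which is needed to make salicylic acid (SA). Genotypes are written with J, E, P and S for DDE2, EIN2, PAD4 and SID2, in upper case when the gene is intact and in lower case when it is mutated, so that JEPS is the wild type, JePS is ein2-1 and jeps is the quadruple mutant. The other genotype, fls2, is a T-DNA line that lacks the flg22 receptor and was infiltrated with the same flg22 solution. It stands in for a mock treatment, since no group was infiltrated without flg22. Leaves for 0 h were untouched and harvested in the late morning. Leaves for 1, 2, 3 and 5 h were harvested at nearly the same time of day, those for 9 h in the evening and those for 18 h in the middle of the next morning. A change between 0 h and a later time thus holds handling, time of day and flg22 together, and the difference from fls2 at the same time takes out what both genotypes share.

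Light-harvesting proteins bind chlorophyll and pass excitation to the reaction centres of the photosystems, whose light reactions drive electron transport across the thylakoid membrane. Rubisco fixes carbon dioxide, and its activase frees the active sites of inhibitory sugar phosphates. These proteins are made from some of the most abundant mRNAs of a green leaf, their genes are known to respond to light, the clock and the state of the chloroplast, and photosynthesis genes are widely known to be lowered in leaves that mount an immune response.

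Total reads ranged from 372525 to 5130803 per library with a median of 1275620, and the 47 genes held between 2.01% and 27.81% of them, with a median of 6.59%. Levels below are normalised counts, the count divided by the 90th percentile count of the library and multiplied by 300. The 47 genes all passed the filter on low counts, which left 11848 genes to test. Shares of all genes below are of these 11848. The study reports a larger number of genes left by its own filter, so it did not keep the same genes, and the reason was not found. The mutated genes went with the labels. The median level of FLS2 was 203 in JEPS and 7.6 in fls2, and that of SID2 was 419 in JEPS and 4.7 in jeps. In jeps, where FLS2 is intact, its median over all times was 95.0. Libraries ran from 0.0 to 1063.6 there and from 50.8 to 1637.0 in JEPS. The study reports that FLS2 transcript was low before infiltration in genotypes with mutated EIN2 and recovered soon after. It concludes that lower receptor protein, if present, had no strong impact. Whether receptor transcript plays a part in the differences between genotypes below was not tested. Root hair genes were at or near 0, with 0 reads of EXP7, 1 of COBL9 and 0 of PRP1 over all libraries, as were the flower gene AP3 with 18 reads and the seed gene CRU3 with 3, whereas AG had 546 reads and SESA1 1391. The lowest correlation of a library with its group was 0.743, in replicate 2 of JepS at 9 h. In whole leaves, fewer cells of a type and less RNA per cell cannot be told apart.

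**Figure D1:**
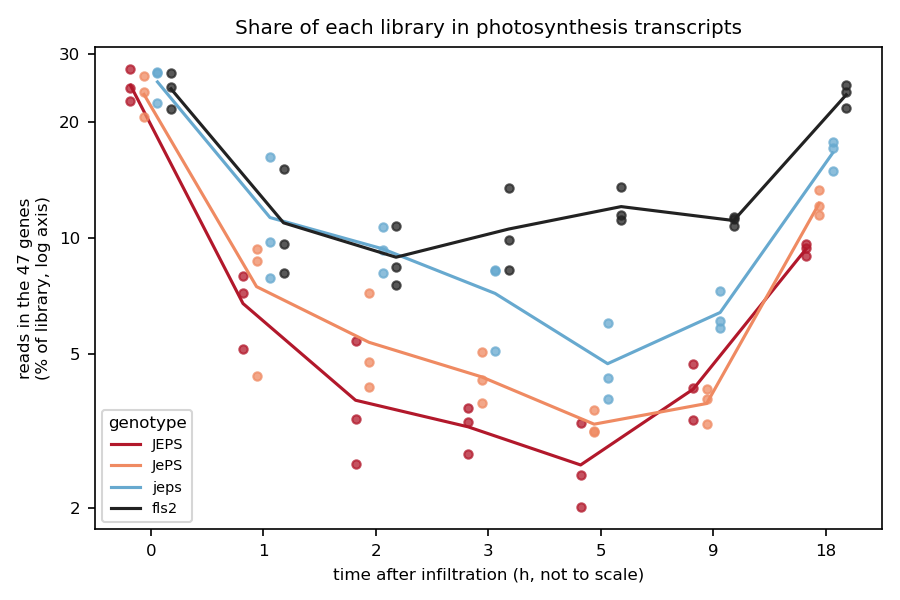
Percentage of all reads that fell in the 47 genes (log axis) against hours after infiltration, 1 point per library and lines through the means of 3 replicates, for JEPS, JePS (ein2-1), jeps and fls2. The 4 genotypes start near 25%, and at 5 h JEPS lies at 2.01 to 3.31% and fls2 at 11.16 to 13.62%.

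Before infiltration the 47 genes took 24.91% ± 2.4 (SD, n = 3) of the reads in JEPS, 25.43% in jeps and 24.4% ± 2.63 in fls2. JEPS and fls2 then separated. In JEPS the mean share over the first 3 times after infiltration was 6.77%, 3.8% and 3.24%, it reached 2.58% ± 0.67 at 5 h, and it was back at 9.36% ± 0.34 by 18 h. In fls2 the same 3 times had 10.97%, 8.93% and 10.56%, the 5 h share was 12.08% ± 1.34, and it had returned to 23.55% ± 1.6 by 18 h. At each time from 1 h on, the share of every JEPS library was below that of every fls2 library of the same time. At 1 h the gap was narrow, from 7.97% for the highest JEPS library to 8.15% for the lowest fls2 library. In jeps the share was 4.73% ± 1.15 at 5 h, between the other genotypes, with libraries from 3.83 to 6.03%.

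Within JEPS at 0 h the levels spanned from 127272 ± 40109 for RBCS1A down to 321 ± 142 for LHCB4.3 (SD, n = 3), on a scale that needs no length correction because a transcript gives reads near its 3′ end only. RBCS1A was followed by LHCA4 (66865 ± 6796), LHCB3 (54964 ± 4310), LHCB1.5 (53830 ± 10078) and LHCB1.3 (53168 ± 17385), the last 3 of which lie within their spread of each other. At the low end LHCA6 (1217 ± 171) and LHCA5 (1182 ± 13.8), which also lie within their spread, were next above LHCB4.3.

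The promoters that go with the results are shown first. They are the 250 bases upstream of the annotated gene start in the TAIR10.1 reference, read 5′ to 3′ on the strand of the gene, with CACGTG (the G-box core) and GATAAG (the I-box core, CTTATC on the other strand) in capitals. LHCB2.3 (AT3G27690) is shown because it had the lowest mean response of all 47 genes, RBCS2B (AT5G38420) because it had the lowest among the Rubisco genes, and PSAH2 (AT1G52230) because its response differed from that of wild type in the most genotype and time pairs. LHCB1.4 (AT2G34430) and LHCB1.5 (AT2G34420) are shown because they lie head to head with 1038 bases between them. Their differences from fls2 also followed unlike courses, which was not tested. Their windows are chr3:10255656-10255905, chr5:15382072-15382321, chr1:19454548-19454797, chr2:14524357-14524606 and chr2:14523569-14523818, on the +, −, +, + and − strand.
LHCB2.3: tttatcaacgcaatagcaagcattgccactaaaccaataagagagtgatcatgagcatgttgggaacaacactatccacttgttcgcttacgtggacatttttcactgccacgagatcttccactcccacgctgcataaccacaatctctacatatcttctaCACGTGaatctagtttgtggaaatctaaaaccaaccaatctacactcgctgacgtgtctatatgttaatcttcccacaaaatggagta
RBCS2B: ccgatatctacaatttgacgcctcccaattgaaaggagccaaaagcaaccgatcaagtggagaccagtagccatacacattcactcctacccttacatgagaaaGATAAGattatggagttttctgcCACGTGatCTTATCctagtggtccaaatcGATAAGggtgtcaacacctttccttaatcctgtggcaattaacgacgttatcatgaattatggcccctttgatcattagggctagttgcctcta
PSAH2: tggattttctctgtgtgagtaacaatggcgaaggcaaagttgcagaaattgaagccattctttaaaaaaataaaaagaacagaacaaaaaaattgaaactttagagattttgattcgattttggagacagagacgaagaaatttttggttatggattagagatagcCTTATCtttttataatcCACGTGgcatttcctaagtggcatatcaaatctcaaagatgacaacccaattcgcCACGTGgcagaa
LHCB1.4: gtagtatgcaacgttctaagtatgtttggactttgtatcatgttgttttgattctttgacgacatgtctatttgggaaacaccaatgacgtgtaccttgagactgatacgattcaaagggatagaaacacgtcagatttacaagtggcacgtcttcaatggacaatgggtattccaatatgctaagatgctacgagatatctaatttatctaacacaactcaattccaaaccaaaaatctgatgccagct
LHCB1.5: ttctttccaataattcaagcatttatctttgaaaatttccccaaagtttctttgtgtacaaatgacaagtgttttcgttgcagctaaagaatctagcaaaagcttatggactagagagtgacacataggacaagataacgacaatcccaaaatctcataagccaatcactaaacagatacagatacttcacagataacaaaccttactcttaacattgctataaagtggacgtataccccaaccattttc
The LHCB2.3 window holds 1 G-box, the RBCS2B window 1 G-box and 3 I-boxes, the PSAH2 window 2 G-boxes and 1 I-box, and the windows of LHCB1.4 and LHCB1.5 neither.

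Searched on both strands, CACGTG was in 9 of the 47 promoters (19.1%) and in 6.5% of 27443 protein-coding promoters of the same length. GATAAG was in 11 (23.4%) against 12.3% of all, CCAATC in 12 (25.5%) against 10.2%, AAAAATCT, a site of the clock factor CCA1, in 5 (10.6%) against 6.7%, and AAAATATCT, the evening element, in 1 (2.1%) against 2.4%. TTGAC, the core bound by WRKY factors, was in 14 (29.8%) against 44.9%. None of these 6 strings lies within another. They are counts of letters, the gene families share ancestry, and no test was made.

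The first comparison asks which of the genes respond to flg22 through its receptor: the change from 0 h in JEPS minus the change from 0 h in fls2, fitted in edgeR over 119 group means. A gene was called when its adjusted p was under 0.05 and its log2 difference past 1 in size. The genes fell far more in JEPS than in fls2. Over the 47 genes the median log2 difference, in order of the 6 times, was −0.68, −1.39, −2.01, −2.51, −1.58 and −1.75, and over all genes tested it was −0.28, −0.30, −0.22, −0.01, 0.02 and 0.00. The 1 h median depended on the scaling, with −0.35 in DESeq2, where that of all genes was 0.06. Taken by replicate number, the 5 h median was −2.99, −2.07 and −2.55. At 5 h, 43 of the 47 were called lower, while 13.5% of all genes tested were. With no filter the number was 45, against 6.35% of 26275 genes. At 1 h none was called lower, with 3.69% of all genes, and edgeR put 17 members under an unadjusted p of 0.05 and limma voom 14, none of them called by either tool. Called lower were 18 members at 2 h (8.08% of all genes) and 37 members at 3 h (13.6%). Later there were 28 members at 9 h (8.72%) and 32 members at 18 h (7.10%). Over all times 45 of 47 were called lower at 1 or more (21.1% of all genes) and none higher (12.0%). No member was higher at an unadjusted p under 0.05 in edgeR or in limma voom.

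With replicate number as a block within time, which stands for the experiments that were pooled, limma voom called 8 (8.85% of all genes), 41 (16.9%), 43 (21.2%), 46 (19.3%), 42 (14.8%) and 47 (13.7%) members lower in order of time. This block does not stand for the sequencing lane: JEPS and fls2 of the same replicate and time were on the same lane in 0 of 21 blocks. With lane as a term, limma voom called 9 (7.35%), 28 (12.1%), 40 (16.5%), 46 (16.8%), 40 (11.2%) and 46 (11.3%). Without replicate 1, edgeR called 0 (1.18%), 2 (2.75%), 11 (5.07%), 29 (6.36%), 10 (3.59%) and 10 (2.80%). The counts per time thus moved with the fit, and the sign of the median did not in any fit run.

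**Figure D2:**
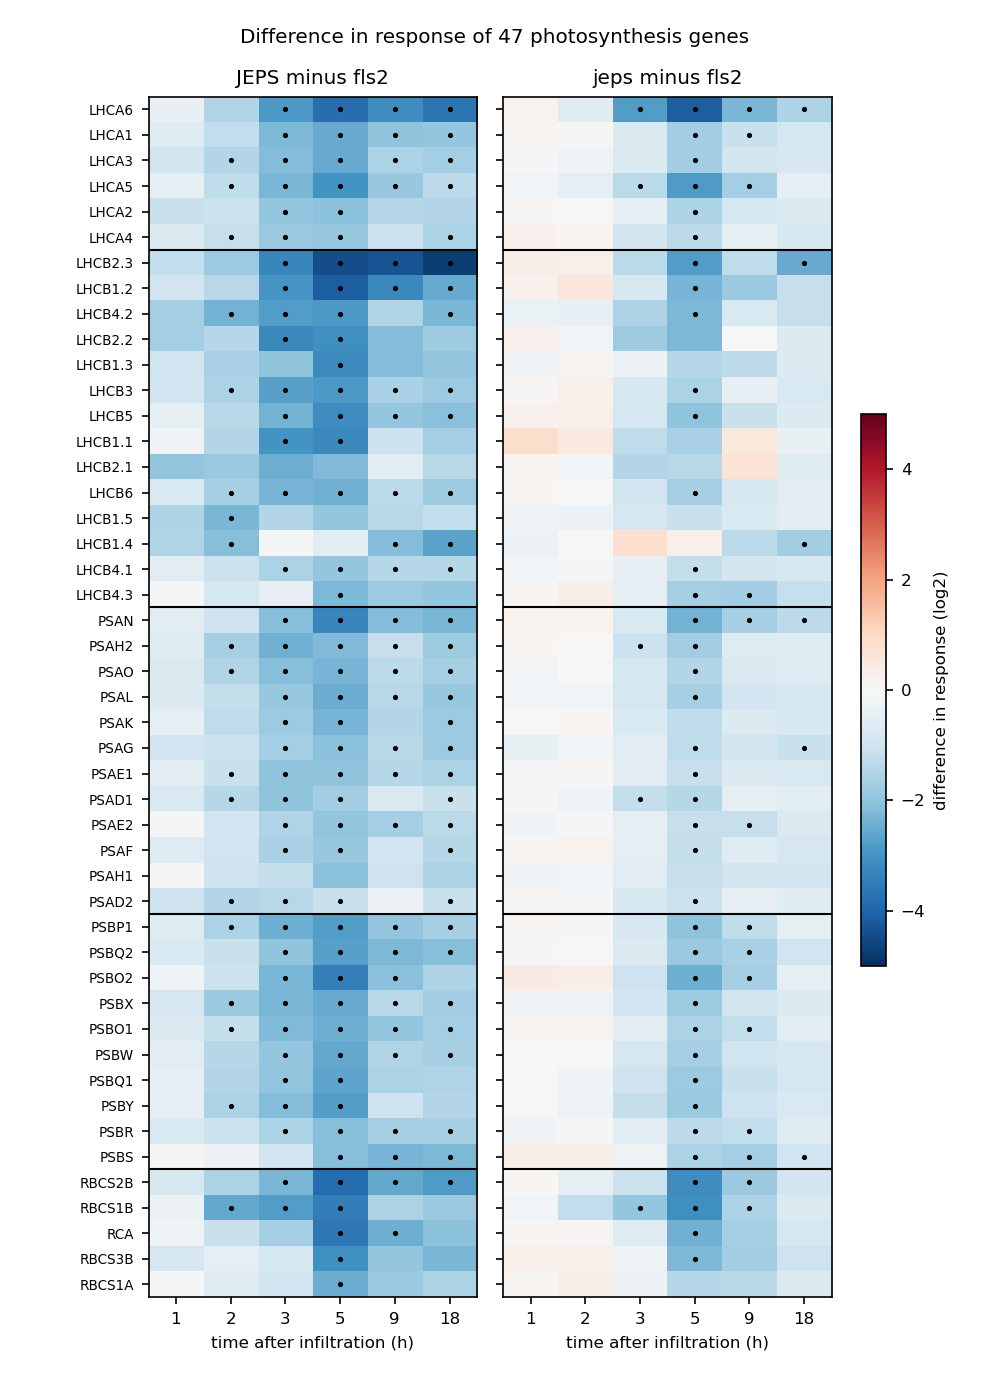
Log2 difference in response from fls2 (colour) for each of the 47 genes (vertical axis, grouped by role) at the 6 times after infiltration (horizontal axis), in JEPS and in jeps. Dots mark genes called. In JEPS 18 genes are called at 2 h and 43 at 5 h, while jeps has 38 of the 47 called at 5 h.

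Of the 45 genes, 18 were first called at 2 h, another 21 at 3 h and the last 6 at 5 h. The difference from fls2 was most negative at 5 h for 37 members, at 3 h for 5 members and at another time for the other 5. In 10 members the call held at 5 of the 6 times and in 18 at 4. LHCB2.1 (AT2G05100) and PSAH1 (AT3G16140) were never called. Their log2 differences at 5 h were −2.19 (SE 0.82, adjusted p = 0.214) and −2.06 (SE 0.63, adjusted p = 0.0613), sizes that are near the median of the 47 with larger errors.

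The antenna of photosystem I had a median log2 difference of −2.52 at 5 h, with 6 of 6 members called lower. LHCA6 (AT1G19150), an antenna protein that in Arabidopsis links the NDH complex of cyclic electron flow to photosystem I, fell most. Its level was 1021, 1287 and 1342 in the 3 JEPS libraries at 0 h and 29.3, 72.7 and 38.5 at 5 h. The fls2 libraries had 1381, 1519 and 1401 at 0 h, each above every JEPS library, and 688, 1024 and 591 at 5 h. At 0 h the log2 difference of JEPS from fls2 was −0.23 (SE 0.30) and not called, and at 5 h the genotypes were far apart. The response was 13.8-fold lower in JEPS at 5 h (log2 −3.79, SE 0.46, adjusted p = 4.37e-11), and at 18 h it was still 12.5-fold lower (adjusted p = 1.02e-10). LHCA4 (AT3G47470), a core antenna protein that carries long-wavelength chlorophylls and has the second highest level of the 47 genes at 0 h, had the mildest response in this group. It went from 59029, 71143 and 70424 to 3310, 7842 and 5674 in JEPS at 5 h, against 19655, 21604 and 18743 in fls2, a 3.68-fold difference (log2 −1.88, SE 0.33, adjusted p = 1.96e-05). The other 4 lay between, from −2.05 in LHCA2 to −2.99 in LHCA5, which also joins photosystem I to the NDH complex.

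The antenna of photosystem II had a median log2 difference of −2.88 at 5 h, and 11 of 14 members were called lower. LHCB2.3, which encodes a subunit of the mobile trimeric antenna (LHCII) that state transitions phosphorylate, had 13693, 17779 and 15761 at 0 h in JEPS, 16.3, 36.4 and 17.9 at 5 h and 363, 473 and 620 at 18 h. The 5 h levels in JEPS rest on 5, 12 and 7 reads. In fls2 it had 688, 412 and 411 at 5 h, from 178, 90 and 89 reads, and 14729, 11411 and 11712 at 18 h. It thus fell in both genotypes by 5 h, further in JEPS, and by 18 h it was back near its 0 h level in fls2 and not in JEPS. The difference in response was 21.8-fold at 5 h (log2 −4.45, SE 0.66, adjusted p = 6.5e-08) and 26.7-fold at 18 h (log2 −4.74, SE 0.56, adjusted p = 7.57e-11), the lowest values among the 47 genes at both times.

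LHCB4.3 (AT2G40100), a minor antenna protein of photosystem II and the gene with the lowest 0 h level of the 47, had the smallest mean response of the group. It went from 457, 332 and 174 to 22.8, 33.3 and 28.2 in JEPS at 5 h, while fls2 had 120, 265 and 106. The difference was 4.78-fold (log2 −2.26, SE 0.62, adjusted p = 0.0198), and this call was lost when any 1 replicate was left out.

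LHCB1 encodes the main trimeric antenna protein and has 5 gene copies. LHCB1.2 (AT1G29910), for which 18.5% of the 30-base windows in its last 300 transcript bases also occur in LHCB1.1, had a log2 difference of −4.14 at 5 h (SE 0.68, adjusted p = 5.62e-06). LHCB1.4 followed another course in its difference from fls2 and is singled out after its values were seen. Its level was 1023, 1844 and 1153 in JEPS at 2 h and 5215, 6728 and 3650 in fls2, but 5122, 6145 and 4792 in JEPS at 3 h and 7404, 5553 and 2348 in fls2. The genotypes were apart at 2 h, overlapped at 3 h and were apart again at 18 h, with 5221, 2888 and 4150 in JEPS and 28586, 19100 and 22823 in fls2. The log2 difference was −2.13 at 2 h (SE 0.51, adjusted p = 0.00598), −0.10 at 3 h, only −0.57 by 5 h, and −2.69 at 18 h (adjusted p = 0.000129). Its neighbour LHCB1.5 had −2.27 at 2 h (adjusted p = 0.0162), −1.45 at 3 h (adjusted p = 0.299), −1.93 at 5 h (adjusted p = 0.067) and −1.22 at 18 h (adjusted p = 0.484). In JEPS the level of LHCB1.5 also rose, from 1977, 6196 and 2611 at 2 h to 9998, 10124 and 8271 at 3 h. No shared 30-base window was found for LHCB1.4 or LHCB1.5, and the difference between them was not tested.

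**Figure D3:**
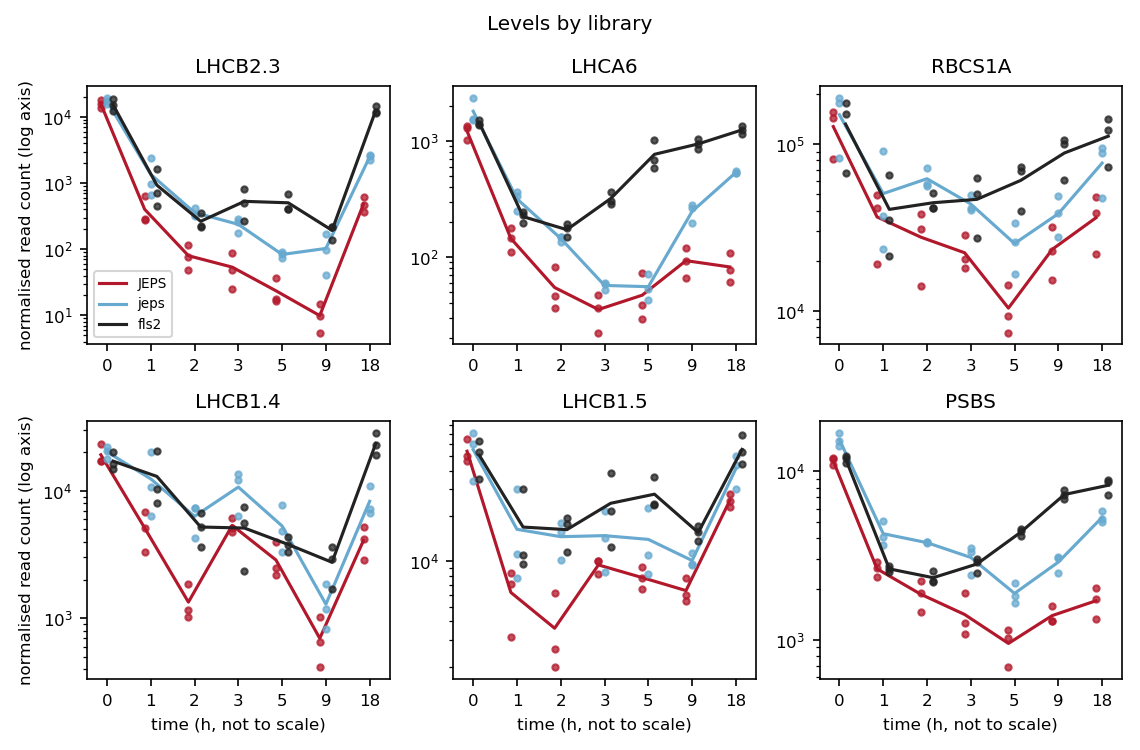
Normalised count (log axis) against hours after infiltration for LHCB2.3, LHCA6, RBCS1A, LHCB1.4, LHCB1.5 and PSBS, 1 point per library and lines through the means of 3 replicates, in JEPS, jeps and fls2. LHCB2.3 falls from 13693 to 17779 at 0 h to 16.3 to 36.4 at 5 h in JEPS. Both LHCB1.4 and LHCB1.5 in JEPS are higher at 3 h than at 2 h.

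Subunits of photosystem I had a median log2 difference of −2.06 at 5 h, and 11 of 12 were called lower. PSAN (AT5G64040), a lumenal subunit near the plastocyanin docking site, had 437, 1049 and 633 in JEPS at 5 h and 8080, 7157 and 5451 in fls2, a 9.71-fold difference in response (log2 −3.28, SE 0.36, adjusted p = 8.94e-13). PSAD2 (AT1G03130), 1 of the gene copies for the stromal subunit that docks ferredoxin, had 1539, 3130 and 1780 in JEPS and 5327, 5502 and 4680 in fls2. Its response at 5 h was lower by little more than the fold minimum (log2 −1.13, SE 0.32, adjusted p = 0.0323), a call that was lost under TMM or library size scaling, without the filter and without any 1 replicate. PSAH2, a subunit at the site where LHCII docks, was already 3.16-fold lower at 2 h (log2 −1.66, SE 0.32, adjusted p = 0.000113), with 834, 1658 and 1018 in JEPS and 3597, 4740 and 3339 in fls2. By 18 h the group was still low, with 11 of 12 members called and a median of −1.63.

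Subunits of photosystem II had a median log2 difference of −2.60 at 5 h, and 10 of 10 were called lower. PSBP1 (AT1G06680), part of the oxygen-evolving complex, had 1598, 3052 and 1836 in JEPS at 5 h and 18383, 13166 and 11806 in fls2, a 6.88-fold difference (log2 −2.78, SE 0.38, adjusted p = 1.36e-08). PSBS (AT1G44575), which senses lumen acidification and switches on the dissipation of excess light energy as heat, had a late response. At 2 h it had 1455, 1904 and 2224 in JEPS and 2246, 2565 and 2194 in fls2, which overlap, and the log2 difference was −0.28 (adjusted p = 0.904). At 5 h it had 685, 1139 and 1026 against 4396, 4527 and 4122 (log2 −2.15, SE 0.27, adjusted p = 2.11e-10), and at 18 h 1747, 1327 and 2035 against 8690, 7211 and 8902 (log2 −2.23, adjusted p = 3.73e-11). The lowest of the group at 5 h was PSBO2 (log2 −3.43, SE 0.49, adjusted p = 4.93e-08), a copy of the manganese-stabilising subunit of the oxygen-evolving complex.

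The Rubisco genes had the lowest median of the 5 roles at 5 h, −3.44, and 5 of 5 were called lower. RBCS2B had 952, 1094 and 839 in JEPS and 14683, 15412 and 12535 in fls2, a 14.4-fold difference in response (log2 −3.84, SE 0.49, adjusted p = 1.34e-09). RBCS1A (AT1G67090), the small subunit gene with the highest level of the 47 genes at 0 h, had 9411, 7446 and 14405 in JEPS and 72646, 39869 and 69249 in fls2. Its response was 5.62-fold lower (log2 −2.49, SE 0.64, adjusted p = 0.0135), with no call at the other times, and the 5 h call was lost without replicate 1 or without replicate 2. RCA (AT2G39730) had 1239, 800 and 1541 in JEPS at 5 h and 14965, 8968 and 13006 in fls2, an 11.9-fold difference (log2 −3.58, SE 0.71, adjusted p = 0.000335). At 9 h 2 of the 5 were called and at 18 h 1, RBCS2B, with group medians of −1.99 and −2.03.

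Other parts of photosynthesis, counted from lists of genes with known roles, were lower in JEPS as well, to be read against the 21.1% of all genes called lower at 1 or more times. The counts were 14 of 14 for electron transport, 15 of 16 for the Calvin cycle, 14 of 15 for chlorophyll synthesis, 9 of 9 for photorespiration, 3 of 6 for chlorophyll breakdown and 9 of 13 for regulators, with none called higher. Their medians at 5 h were −2.36, −2.62, −2.64, −2.68, −1.36 and −1.93 in that order.

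Within electron transport the lowest means were those of PETE1, a plastocyanin (log2 −3.10 at 5 h, adjusted p = 5.14e-11), and FD2, the main leaf ferredoxin (−3.27), and the highest those of PGRL1B (−1.64) and FD1 (−1.46). In the Calvin cycle CP12-2, which binds its enzymes in the dark, was at −3.13 and the aldolase FBA1 at −3.50, while the phosphoglycerate kinase PGK2 was at −1.86 and the isomerase RPI3 at −0.61 with no call. In chlorophyll synthesis CHLI2 of magnesium chelatase was at −3.74 and the divinyl reductase DVR at −3.38, against −1.83 for GSA2. GSA1, which acts at the same step as GSA2 early in the pathway, had a positive difference of 1.08 (adjusted p = 0.0584).

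The glycine decarboxylase gene GLDT and the reductase gene HPR1 were at −3.25 and −3.36 at 5 h, and SHM1 and GLYK at −2.06 and −1.81. Of chlorophyll breakdown, NYC1, which starts the removal of chlorophyll b, was at −2.67 at 2 h (adjusted p = 9.72e-05) and RCCR at −1.96 at 5 h, whereas SGR1 (−0.94 at 5 h) and PAO (−0.53) were not called at any time. Among regulators, PIF4, a light-labile bHLH factor, was at −4.51 at 5 h (adjusted p = 8.51e-14) and GNC, a GATA factor that promotes greening, at −4.37 at 3 h (adjusted p = 3.64e-10), and PIF5 and PIF3 were not called at any time.

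Markers of other leaf cells were set beside these values. At 5 h the summed level of 3 guard cell markers was 194.9 to 224.2 in JEPS and 137.2 to 253.8 in fls2, and that of 3 phloem markers 887.9 to 1969.2 and 983.2 to 1850.8, which overlap. The sum of 3 epidermis markers was 365.2 to 735.9 in JEPS and 653.4 to 900.0 in fls2 at 5 h, which overlap. It was lower in JEPS at 9 h, with 483.5 to 531.2 against 586.0 to 843.4, and at 18 h, with 300.0 to 475.0 against 527.8 to 796.2. At 2 h it was higher in JEPS, with 1287.0 to 1882.8 against 971.2 to 1271.7, unlike the 47 genes. Its part in the result was not tested.

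Without the receptor the genes also moved with time. In fls2 the median log2 change from 0 h in order of time was −1.55, −1.90, −1.59, −1.27, −1.30 and −0.13. Members called lower were, by time, 34 (20.9% of all genes), 43 (15.4%), 41 (9.12%), 31 (6.95%), 35 (7.09%) and 0 (1.32%), and none was called higher. At 18 h, 2 members were lower at an unadjusted p under 0.05 in edgeR and 3 in limma voom, and none was higher at any time in either. Time of day and handling cannot be told apart in these changes.

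Between 1 and 5 h in fls2, at nearly the same time of day, 8 members rose and 2 fell at an adjusted p under 0.05, against 25.1% and 16.8% of all genes. The 8 were LHCB4.3 (log2 1.87), RBCS1B (1.84), LHCA6 (1.78), RBCS2B (1.29), PSAD1, PSAD2, PSBY and PSBS, and the 2 were LHCA2 (−1.03) and LHCB1.4 (−1.77). In edgeR the shares of members were thus below those of all genes in both directions. With the replicate block within time the picture for rises was another, with 31 members up (34.3% of all genes) and 4 down (24.7%), 35 in all. Between JEPS and fls2 at 0 h the median log2 difference was 0.04, with no member called or under an unadjusted p of 0.05 in edgeR or limma voom.

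The second comparison asks what is left of the response when the 4 sectors are disabled, and it uses the same fls2 libraries as the first. In 20 of 21 blocks jeps and fls2 were on the same lane, while JEPS and jeps were in 1 and JEPS and fls2 in 0. The part of lane in how near jeps lies to fls2 or to JEPS was not tested. The median level of FLS2 was also lower in jeps than in JEPS, as given above, and its part was not tested. The fall in jeps came later and was smaller. Its median log2 difference from fls2 in order of time was 0.06, −0.00, −0.80, −1.65, −1.03 and −0.77. No member was called at 1 or 2 h, where edgeR and limma voom each put 0 and 1 member under an unadjusted p of 0.05. From 3 h on, the members called lower were 5 (13.3% of all genes), 38 (16.6%), 14 (7.38%) and 6 (1.33%). In all 39 members were called lower at 1 or more times (21.5% of all genes) and none higher, and none was higher at an unadjusted p under 0.05 in either tool. Without replicate 1 the number was 20 (12.8%), and it was 47 (28.0%) with the replicate block within time.

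LHCA6 kept its fall in jeps at 5 h. It had 52.9, 70.6 and 42.6 in jeps, in the range of JEPS and below the 591 to 1024 of fls2, and its log2 difference was −4.11 (SE 0.46, adjusted p = 6.36e-14). At 18 h it had 528, 553 and 528 in jeps, above the 61.0 to 107.5 of JEPS. LHCB2.3 had 84.7, 73.5 and 91.7 at 5 h (log2 −2.79, SE 0.59, adjusted p = 0.000137) and 2601, 2635 and 2253 at 18 h, between JEPS and fls2 at both times without overlap. RBCS2B was at −3.12 at 5 h (adjusted p = 1.78e-07), PSAN at −2.36 and PSBS at −1.58, and RBCS1A was at −1.44 and not called (adjusted p = 0.134). LHCB1.4 was at 0.83 at 3 h (adjusted p = 0.341) and at −1.75 at 18 h (adjusted p = 0.00911).

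Each of the other 15 sector genotypes was then compared with JEPS, in 90 comparisons that share the JEPS libraries. A total of 21 members were called in 67 pairs of gene and comparison, and every call was a weaker fall than in JEPS. None was a stronger fall, where 8 members had an unadjusted p under 0.05 in edgeR and limma voom. In jeps 20 members were called (4.31% of all genes were called higher), 12 of them at 2 h and 9 at 3 h, none at 5 h, then 1 at 9 h and 5 at 18 h. In Jeps, which keeps DDE2 alone, 14 were called (3.54%), and in jePs 5 (2.24%), JEps 4 (1.13%), JePs 4 (2.25%), jepS 3 (3.64%), JepS 2 (1.24%), JEPs 1 (0.346%) and jEps 1 (1.22%). In jEPS, JePS, JEpS, jePS, jEpS and jEPs none was called, and the numbers with an unadjusted p under 0.05 and a weaker fall were 0, 13, 0, 23, 14 and 2 in edgeR. The count for jeps depended on the fit: it was 43 with the replicate block within time (15.7% of all genes), 2 without replicate 1 (1.28%), 3 without replicate 2 (1.93%) and 11 without replicate 3 (1.48%).

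The gene called in the most pairs was PSAH2, with 10 pairs in 5 genotypes, followed by LHCA6 with 9 in 9 and LHCB2.3 and LHCB3 with 6 each. PSAH2 had 3969, 4283 and 3396 in jeps at 2 h, apart from the 834 to 1658 of JEPS, and its response was less negative by 1.66 on the log2 scale (adjusted p = 0.000407). LHCB1.4 in jeps at 2 h was less negative by 2.16 (SE 0.51, adjusted p = 0.0125), LHCB3, a trimer subunit of the antenna, by 1.94 at 3 h, LHCA6 by 2.09 at 18 h, and LHCB2.3 by 3.02 at 9 h. In Jeps at 18 h LHCB2.3 had 6436, 5163 and 4581, above the 363 to 620 of JEPS and below the 11411 to 14729 of fls2.

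Against jeps, which was the study's measure of dependence on the network, 33 of the 47 genes were called in at least 1 of 90 comparisons, while 23.2% of all genes were. The 214 calls were all lower than in jeps, and no member was higher at an unadjusted p under 0.05 in either tool. Members called lower than in jeps, each beside the share of all genes, numbered 29 in jEPS (9.58%), 28 in JEpS (4.83%), 26 in JEPs (3.91%), 22 in JEPS (6.28%), 13 in jEPs (2.11%), 9 in JEps (258 of the 11848 genes), 3 in jEps (0.937%), 1 in jEpS (1.16%) and 1 in JePS (3.10%). The counts of 1 are near the shares of all genes or below them. None was called in the other genotypes, all of which carry ein2-1. At 18 h, 24 members were called below jeps in jEPS (7.71% of all genes) and 6 in JEPS (3.37%). The medians of the 47 genes against fls2 at 18 h were −2.37 in jEPS and −1.75 in JEPS. No member was called different between these genotypes at any time, where 183 of the 11848 genes were. Without replicate 1 the number of genes called against jeps was 14 (10.1% of all genes), and with the replicate block within time it was 47 (48.2%).

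**Figure D4:**
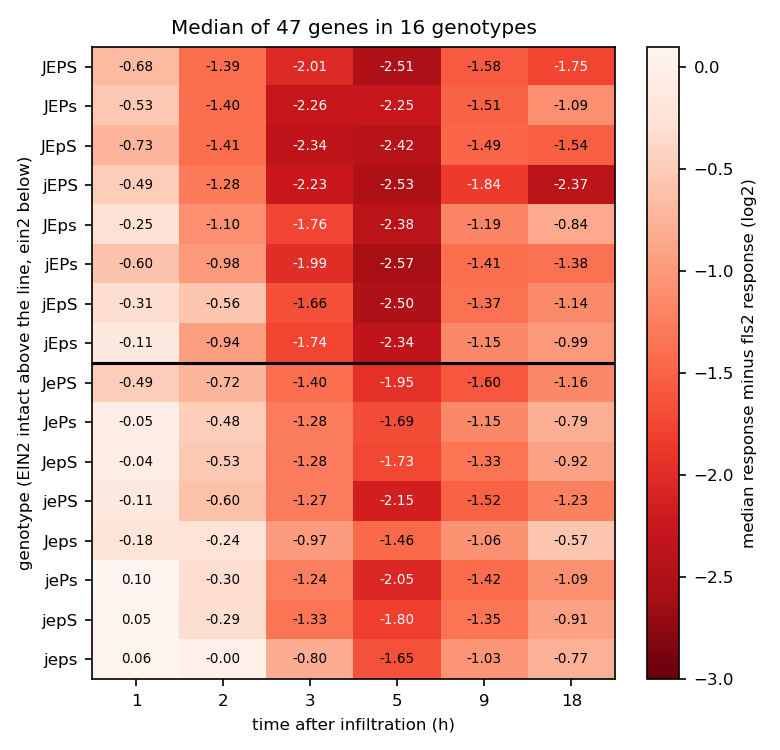
Median over the 47 genes of the log2 difference in response from fls2 (colour, with values) for 16 genotypes (vertical axis) at 6 times (horizontal axis). Genotypes with intact EIN2 are above the line, and at 5 h they range from −2.57 to −2.25 while those with ein2-1 range from −2.15 to −1.46.

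Sorted by EIN2, the medians of the 8 genotypes with the intact gene did not overlap those of the 8 with ein2-1 at 3 h, with −2.34 to −1.66 against −1.40 to −0.80, or at 5 h, with −2.57 to −2.25 against −2.15 to −1.46. At 2 h they ran from −1.41 to −0.56 and from −0.72 to −0.00. At 9 h they ran from −1.84 to −1.15 and from −1.60 to −1.03, and at 18 h from −2.37 to −0.84 and from −1.23 to −0.58. All 16 medians use the same fls2 libraries, so the ranges are a description.

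Averaged over the other 3 genes, the mean response of the 8 genotypes with an intact sector gene was tested against that of the 8 with its mutant, with 24 libraries on each side at each time and a call at an adjusted p under 0.05 without a fold minimum. With intact EIN2 the fall was deeper, and the part of FLS2 level in this was not tested. Members with a lower response were, in order of time, 16 (6.20% of all genes), 42 (13.2%), 39 (7.47%), 32 (3.42%), 5 (2.42%) and 23 (8.45%), 42 members in all. The median EIN2 effect over the 47 genes was −0.36, −0.75, −0.74, −0.55, −0.14 and −0.47. No member had a call in the other direction, with 2 at an unadjusted p under 0.05 in edgeR and in limma voom. The largest were LHCB2.3 at 18 h (log2 −1.43, SE 0.20, adjusted p = 2.25e-09) and LHCB3 at 3 h (−1.40, SE 0.16, adjusted p = 1.24e-13). LHCB3 at 3 h had 1590, 1816 and 2608 in JEPS, 4280, 4443 and 4994 in JePS and 9151, 8393 and 5010 in Jeps, so that the ein2-1 single mutant lay above the wild type without overlap, although its own difference in response from JEPS was not called (log2 1.31, SE 0.45, adjusted p = 0.198). With the replicate block within time the counts were 38 (12.2% of all genes), 46 (22.5%), 44 (14.6%), 40 (6.76%), 17 (4.88%) and 44 (16.5%).

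With intact SID2 the fall was deeper late in edgeR, which had no replicate block. The number of members was 4 at 9 h (3.92% of all genes) and 19 at 18 h (6.57%), with none from 1 to 5 h, where 9 had an unadjusted p under 0.05 in edgeR and in limma voom. The median effect at 18 h was −0.42, and the largest was that of LHCA6 (log2 −1.29, SE 0.16, adjusted p = 4.99e-12), followed by LHCB2.3 (−1.04) and RBCS2B (−0.82). Intact PAD4 gave 1 member at 9 h (1.84%) and 12 at 18 h (4.41%), led by LHCA6 (−0.81, adjusted p = 4.54e-05), LHCB2.3 (−0.80) and RBCS2B (−0.69), and none from 1 to 5 h, where 20 members had an unadjusted p under 0.05 in edgeR and 18 in limma voom. With the replicate block within time the SID2 counts were 10 (0.827% of all genes), 10 (154 of the 11848 genes), 4 (1.06%), 3 (1.52%), 27 (10.3%) and 44 (15.0%). The PAD4 counts were then 5 (3.29%), 23 (3.00%), 17 (2.95%), 10 (3.64%), 26 (6.36%) and 41 (12.2%). Both genes thus had calls from 1 to 5 h with this block, so the late timing depended on the fit. The SID2 count at 1 or more times was 6 without replicate 1 and 5 without replicate 3, and the PAD4 count was 4 in each of these fits. Without replicate 3 the PAD4 calls were 2 at 3 h and 2 at 18 h. No share of all genes is given for these fits, so the counts are not read against all genes.

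Intact DDE2 gave calls in both directions, over all times 3 members lower (8.92% of all genes) and 5 higher (10.1%), shares that are near those of all genes in edgeR. LHCB2.3 was lower at 1 h (−0.67) and 2 h (−0.96) and higher at 18 h (0.69), LHCB1.4 was lower at 2 h (−0.77) and PSBO1 at 3 h (−0.38), and PSAD2, PSAD1, LHCA4 and PSAN were higher by 0.36 to 0.56 at 3, 5 or 18 h. With the block within time 31 members were lower (20.0% of all genes) and 16 higher (18.5%), so that the reading against all genes depended on the fit. Before infiltration, intact DDE2 went with lower levels of LHCB4.3 (log2 −0.58, adjusted p = 0.00287) and PSBS (−0.24, adjusted p = 0.0246), 2 members against 0.397% of all genes. EIN2, PAD4 and SID2 had no call at 0 h, where 1, 2 and 0 members had an unadjusted p under 0.05 in edgeR and in limma voom.

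**Figure D5:**
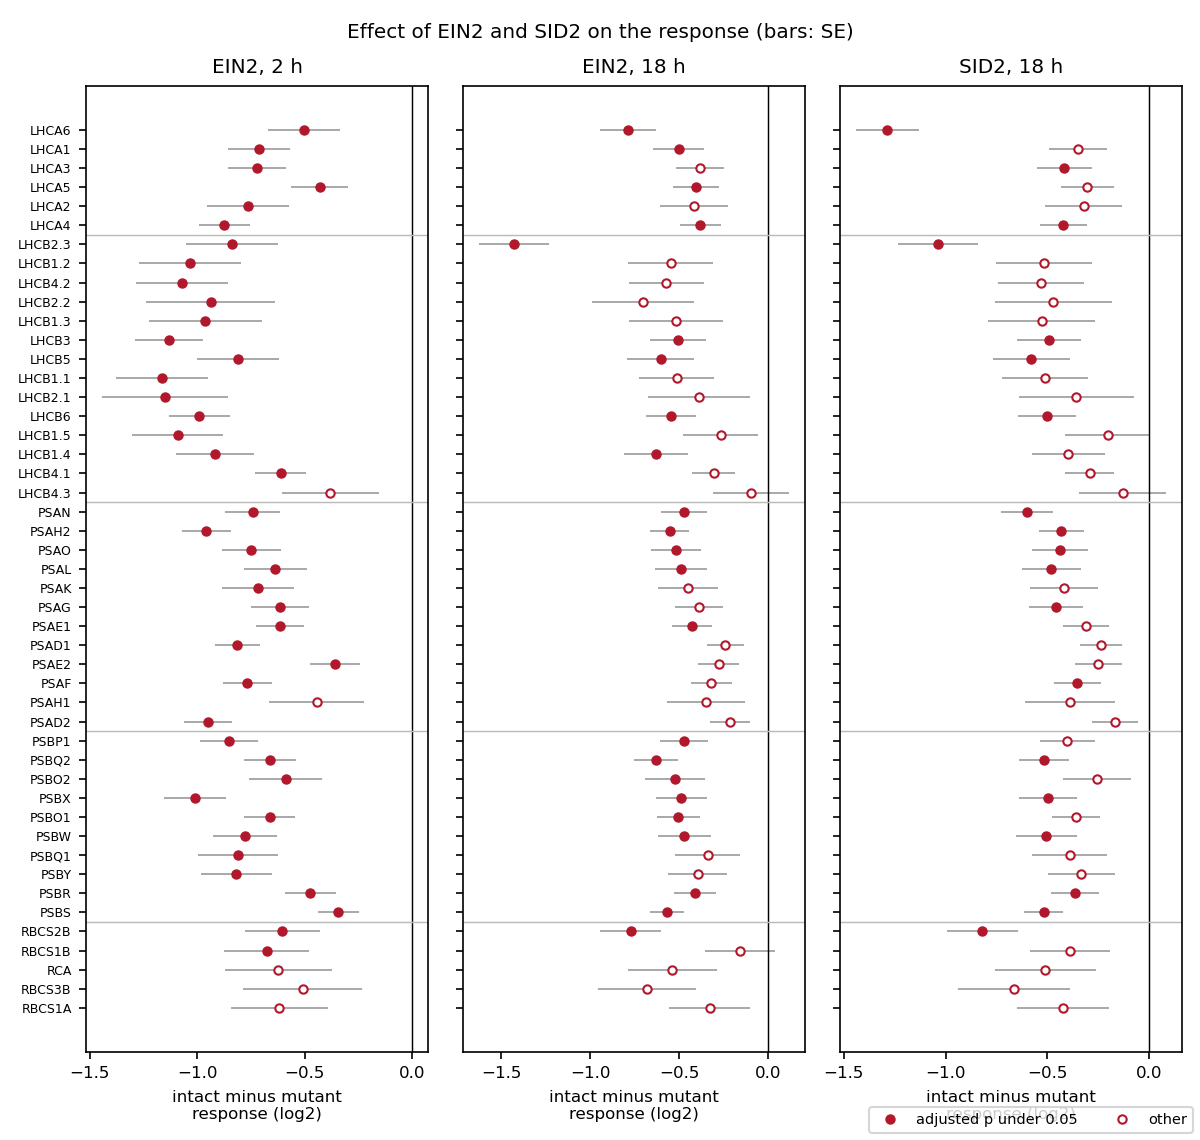
Log2 difference in mean response between the 8 genotypes with the intact gene and the 8 with its mutant (horizontal axis, points with SE bars) for each of the 47 genes, shown for EIN2 at 2 h, EIN2 at 18 h and SID2 at 18 h. Filled points have an adjusted p under 0.05. Most filled points lie below 0, with 42 at 2 h for EIN2 and 19 at 18 h for SID2.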

How the data were processed

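Total leaf RNA of 357 libraries, sequenced on 23 lanes, was analysed from the 1 deposited table of read counts per gene. Per the labels and the study's methods, the authors made these counts from stranded 3′ Tag-Seq reads with Bowtie 0.12.8 against TAIR10 transcripts, after barcode matching and removal of homopolymer reads, and kept forward-strand reads of a single gene. Reads of near-identical copies (LHCB1, LHCB2, RBCS) may therefore be dropped or split. Depth limits levels resting on few reads, and precision covers counting and replicate error only.

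Counts were scaled by the 90th percentile count over 26275 genes with a read. Genes at 0 in fewer than 50 libraries, with a 15th highest count above 25, were kept. The study's model, means of 119 genotype and time groups, was fitted in edgeR 4.0.16 (quasi-likelihood, R 4.3.3) without a block. Contrasts were computed on the libraries of their groups. P-values were adjusted by Benjamini-Hochberg, pooled over genes and comparisons of each family of 96, 6, 90, 24 or 7 comparisons, in place of Storey's q. Alternatives used limma 3.58.1, DESeq2 1.42.0, TMM, library size, no filter, a lane term, a replicate block and leaving out replicates, and the TMM, library size, no filter and leave-one-out fits kept the dispersion trend of the full fit. The JEPS minus fls2 response at 5 h was simulated in 11848 genes, 100 of them with a true log2 difference of −2 and 100 with −1. Of these, 54% and 4% had an adjusted p under 0.05, adjusted within this 1 comparison and without the fold minimum. The calls above pool families of comparisons and add the fold minimum, so these rates are not those of the calls. An uncalled gene is not an unchanged one.

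Each of the 21 blocks of replicate and time was spread over 2 lanes, with 270 libraries on the main lane of their block and JEPS and fls2 on the same lane in 0 blocks. A lane was shared by jeps and fls2 in 20 blocks and by JEPS and jeps in 1. Same-numbered replicates pooled the same experiments. Their deviations from group means correlated at 0.291 on average at the same time against −0.142 for other numbers, and 356 of 357 libraries were closest to their own number. Values by library were given for the member with the lowest and the highest mean response in each role. The other lists name the 2 lowest and the 2 highest. The gene set, lists, markers and tests were chosen with earlier results of these data known. Promoter sequences are from the RefSeq TAIR10.1 assembly.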

Additional observations from a re-analysis of the deposited data

Results flagged for a closer look

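The response of members differed between JEPS and 9 other genotypes in a test of the difference itself, edgeR's quasi-likelihood test of 1 response minus the other. Every such member had a weaker fall than in JEPS, so each share given is that of all genes called higher. The members numbered 20 in jeps (4.31%), 14 in Jeps (3.54%), 5 in jePs (2.24%), 4 in JEps (1.13%) and 4 in JePs (2.25%). There were 3 in jepS (3.64%), 2 in JepS (1.24%), 1 in JEPs (0.346%) and 1 in jEps (1.22%). Called in either direction were 884 of the 11848 genes in jeps, 695 in Jeps and 751 in jepS. The counts of 1 to 3 are small, and nothing is read from them. The count for jeps was 2 without replicate 1 (1.28% of all genes), 3 without replicate 2 (1.93%) and 11 without replicate 3 (1.48%). The comparisons share the JEPS libraries and are not independent of each other.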

How the results depend on the processing

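The median JEPS minus fls2 difference kept its sign under the alternatives run. For DDE2 the balance of calls turned, from 3 members lower and 5 higher in edgeR to 31 and 16 with the replicate block within time. For fls2 between 1 and 5 h, 8 members rose in edgeR (25.1% of all genes) and 31 with that block (34.3%). Of the main counts and medians 152 values stayed and 36 moved, and of the values of named members at 5 h 99 stayed on their side of the threshold and 11 lost their call. The alternatives for the EIN2, PAD4 and DDE2 counts and for the named members were chosen after seeing the data. With a lane term in limma voom, the members called were 38 for jeps against JEPS (20 in edgeR), 42 for SID2 (19), 41 for PAD4 (12), 32 for DDE2 (7), 6 for a sector effect at 0 h (2) and 17 for fls2 between 1 and 5 h (10). With an additive replicate block, PAD4 had 23 and DDE2 11. With the replicate block within time, which the shared experiments call for, the numbers in the same order were 43, 44, 42, 33, 4 and 35. Shares of all genes rose with this block too, from 4.31% to 15.7% for jeps higher than JEPS and from 6.57% to 15.0% for SID2 at 18 h. Without replicate 1 the share lower in jeps than in fls2 went from 21.5% to 12.8%. For these counts with the lane term or the additive block no share of all genes is given, so they are not read against all genes. Without the filter 1 member had a sector effect at 0 h. Leaving out 1 replicate gave 20 to 34 members lower in jeps than in fls2 (39 with all), 2 to 11 for jeps against JEPS, 14 to 28 for dependence on the network (33), 5 to 13 for SID2, 4 to 11 for PAD4, 3 to 4 for DDE2 and 0 to 1 for a sector effect at 0 h. Shares of all genes, which also fell where given, are given for only some of these fits. The ranges are therefore not read against all genes. The median JEPS minus fls2 difference was −0.348 at 1 h and −1.084 at 2 h in DESeq2, −1.122 at 2 h under TMM and with the lane term, and −1.408 at 9 h and −1.382 at 18 h under library size. TMM and DESeq2 bring the median of all genes at 1 to 3 h from between −0.301 and −0.217 to near 0, and library size scaling moves it to 0.372 at 18 h. The cause of the other shifts was not tested.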
